A study of Mus musculus with 4 samples.

Results

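Transcripts of 7 Krüppel-like factor (KLF) genes and of 3 genes tied to lymphocyte egress were followed in group 2 innate lymphoid cells (ILC2), tissue lymphocytes that make type 2 cytokines without a rearranged antigen receptor. The 10 genes were Foxo1, Klf2, S1pr1, Cd69, Klf3, Klf4, Klf6, Klf9, Klf10 and Klf13, out of 18194 genes named on the arrays. They were taken by name, through all 32 probe sets that carry a single one of these symbols. Each gene is given by its brightest probe set on average, and the others served as a check. The cells came from C57BL/6 mice with a deletion of Ets1, the gene of an ETS family transcription factor, or from littermate controls. Culture on OP9-DL1 stroma, which presents a ligand of Notch, lasted 2 weeks in IL-7 plus IL-33 before ICOS+ cells were sorted for RNA. Each genotype had 2 Affymetrix arrays, so n = 2 per group throughout. The sources used here do not give how Ets1 was deleted, the age of the mice or whether the arrays came from separate animals or cultures. The p-values therefore reflect the spread between these arrays alone, and part of it may be technical. The comparison asks which of these genes depend on Ets1 in cultured ILC2.

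FOXO1 is a forkhead transcription factor that enters the nucleus when PI3K and AKT signalling is low, and in lymphocytes it drives Klf2 and Il7r. KLF2 in turn drives S1pr1, which encodes the receptor that lets lymphocytes leave tissue along a gradient of sphingosine 1-phosphate (S1P). CD69, which appears on activation, binds that receptor and takes it off the surface. The other KLF proteins share the same kind of zinc fingers, which bind GC boxes and CACCC elements, but differ in the cofactors they recruit.

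Ets1 itself read 1272 and 1231 intensity units in the controls and 138 and 180.17 in the Ets1-deleted arrays, a log2 difference of -2.99 ± 0.13 (SE, limma). Array medians lay between 96.5 and 97.7 intensity units. All 12 ILC2 genes of the marker list that had a probe set of their own were bright enough to test. Of these, 7 were called higher, Il5 and Il13 among them, and 3 lower, while Gata3 did not pass. The lower ones were Klrg1 (log2 difference -1.596), Nmur1 (-0.678) and Icos (-0.382), whose protein was the marker for sorting. The summed level of the 12 was 21877 to 24142 in the controls and 27449 to 29883 in the Ets1-deleted arrays. Some markers of other cells moved with the genotype. The summed level of 12 myeloid genes was 2283 to 2513 in the controls and 4275 to 4314 in the Ets1-deleted arrays, that of 12 mast cell and basophil genes 2506 to 2516 and 4071 to 4245, and that of 12 T cell genes 3726 to 3873 and 6596 to 6906. Of the 9, 8 and 7 genes of these lists that were tested, 9, 6 and 4 were called higher and 0, 0 and 1 lower. Cpa3 read 85.9 and 78.3 intensity units in the controls and 1497 and 1261 after deletion. Mcpt8 read 1337 and 1385, then 1097 and 1193, and did not pass. The T cell genes called higher were Cd3e, Cd3d, Cd3g and Cd247. Zap70 was lower (log2 difference -1.13), and Cd4 and Cd8a were too dim to test. Cpa3, Hdc and Adgre1, with both controls under the limit for testing, were tested only because the Ets1-deleted values were higher. For 14 genes of stroma the sums were 3445 to 3654 and 3663 to 3682 (1 higher, 3 lower). The stroma sums hide a split. Timp3 was the gene called higher (log2 difference 2.55), while Pdgfrb (-0.85), Cxcl12 (-0.41) and Vcam1 (-0.34) were called lower. Over the 12 tested stroma genes the median was -0.27, so the sums do not show an equal share of stroma. For 8 endothelial genes the sums were 1150 to 1248 and 1093 to 1167 (0 higher, 0 lower). For 7 B cell genes they were 844 to 879.61 and 563 to 565 (0 higher, 1 lower).

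Of the 10 genes, 3 rose (Klf4, Klf13 and Klf10), 2 fell (Klf3 and S1pr1) and 5 did not pass an adjusted p of 0.05 in limma (Foxo1, Klf2, Cd69, Klf6 and Klf9). Over all 10873 genes bright enough to test, 26.7% passed, 13.9% higher and 12.8% lower. Klf3 was the 1 gene of the 10 that was called and at least 2-fold apart, against 4.64% of all tested genes. The groups did not overlap for 8 of the 10, but they also did not overlap for 62.6% of all tested genes. The median log2 difference was 0.08 over the 10 genes and -0.0037 over all tested genes.

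**Figure D1:**
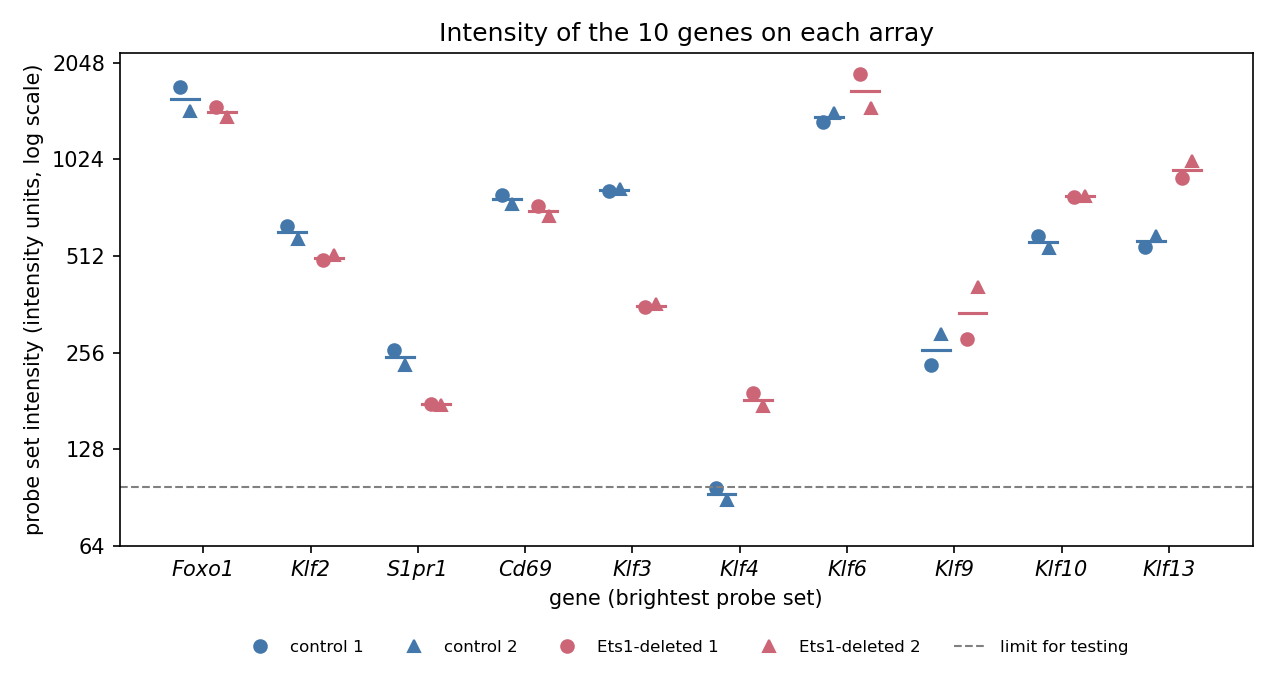
Intensity of the brightest probe set of each gene (log scale) on the 2 control arrays (blue) and the 2 Ets1-deleted arrays (red), with circles for replicate 1, triangles for replicate 2 and bars for the geometric mean of each group. The dashed line is the limit for testing of 97.4 intensity units. Klf3 drops from 819 and 829 to 355 and 362, and Klf4 crosses the line from below.

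At the top of the egress pathway, Foxo1 was bright in both groups and did not pass the test. Its controls read 1722 and 1447 intensity units, against 1492 and 1392 after deletion, and the groups overlapped. The log2 difference was -0.13 ± 0.12, with a 95% interval from -0.40 to 0.13 (limma, adjusted p = 0.479). Its 4 probe sets went both ways, from -0.29 to 0.22, and none passed when each probe set was fitted as its own row. In that fit 24.2% of 19845 probe sets passed.

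Klf2, which FOXO1 drives, read 637 and 578 intensity units in the controls and 497 and 514 in the Ets1-deleted arrays. Both controls lay above both Ets1-deleted arrays, and the log2 difference was -0.26 ± 0.11, with a 95% interval from -0.51 to -0.02. It did not pass after adjustment (limma, adjusted p = 0.105). Klf2 has a single probe set, so no other reading of it was at hand.

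S1pr1 fell. Its probe set read 262 and 234 intensity units in the controls and 177 and 176 in the Ets1-deleted arrays, so that both Ets1-deleted arrays were nearly equal and below both controls. The fall was 1.40-fold, or -0.49 ± 0.11 on the log2 scale (limma, adjusted p = 0.00670). Without control 1 the log2 difference was -0.41 and the call was lost. In that fit the adjusted p followed the size of the difference alone, so the lost call does not show the part of control 1 by itself. In sorted bulk cells, fewer cells that express a gene and less RNA per cell cannot be told apart. S1pr1 is also abundant in endothelium. Of 8 endothelial genes, Cdh5, Kdr, Tek, Vwf, Emcn and Plvap lay below the limit for testing on all 4 arrays. Pecam1 (583 and 641 intensity units in the controls, 482 and 585 after deletion) and Egfl7 (131 and 184, then 181 and 157) were bright, overlapped between the groups and did not pass. The part of endothelial cells in the S1pr1 result was not tested.

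Cd69, whose protein opposes S1PR1 at the cell surface, read 792 and 745 intensity units in the controls and 735 and 680.2 in the Ets1-deleted arrays. The controls were slightly higher, by less than the test could separate. The log2 difference was -0.12 ± 0.11, with a 95% interval from -0.36 to 0.12 (limma, adjusted p = 0.485).

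Klf3, which encodes a repressor that recruits the corepressor CtBP, fell, with a larger difference than the other 9 genes in the fit as described. Klf4 differed more with each array's 5th percentile subtracted (1.79 against -1.34 for Klf3) and with the mean over probe sets (0.92 against -0.60). Its controls were nearly equal at 819 and 829 intensity units, as were the Ets1-deleted arrays at 355 and 362. Replicates differed far less than the groups. The fall was 2.30-fold, or -1.20 ± 0.11 on the log2 scale (limma, adjusted p = 5.69e-06), the 103rd steepest of all tested genes. All 5 bright probe sets of Klf3 fell in the fit of single probe sets, by log2 differences from -1.20 to -0.45. Its 2 remaining probe sets lay below the limit on average and differed by -0.05 and -0.19. With the mean over all 7 probe sets, dim ones included, the log2 difference was -0.60.

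Klf4 rose. KLF4 is a pluripotency and differentiation factor that in lymphocytes restrains the cell cycle and in the myeloid lineage supports monocytes. Its brightest probe set read 96.9 and 89.0 intensity units in the controls and 191 and 175 in the Ets1-deleted arrays. The second one gave nearly the same picture, with 94.3 and 93.2 against 178 and 164. The log2 difference was 0.98 ± 0.11 (1.97-fold, limma, adjusted p = 4.88e-05), and 0.87 ± 0.11 on the second probe set. Both controls lay under the limit for testing of 97.4, so Klf4 was tested only because the Ets1-deleted values were higher, and its call is read with that in mind. Values so near the floor also understate a fold: with each array's 5th percentile subtracted the log2 difference was 1.79. In the same arrays all 9 tested genes of the 12 myeloid genes rose, Csf1r by 1.01 (0.40 to 1.01 over its bright probe sets) and Lyz2 by 0.50. The rest were too dim to test. Of these, Cd14 and Elane read at most 86.6 and 107 intensity units on any array. The part of myeloid cells in the Klf4 result was not tested.

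Klf13 and Klf10, whose proteins are repressors that bind the SIN3A corepressor, rose as well. KLF13 is known for driving the chemokine gene Ccl5 late in T cell activation. Klf13 measured 547 and 589.8 intensity units without the deletion and 894 and 1010.45 with it, so the groups lay well apart. The log2 difference was 0.74 ± 0.12 (1.67-fold, limma, adjusted p = 0.000477). A second probe set of Klf13 rose by 0.47, while the dimmest one differed by -0.02, and the mean over the 3 gave 0.40. KLF10 is an early target of TGF-beta signalling. Klf10, on its single probe set, went from 589.8 and 543 to 780.07 and 790.2. Its log2 difference was 0.47 ± 0.11 (1.39-fold, limma, adjusted p = 0.00724). The Klf10 call was lost without control 2, where the log2 difference was 0.41. There too the adjusted p followed the size of the difference alone, so the part of control 2 by itself is not shown.

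Klf6, an early response gene, depended on the probe set. The brightest read 1344 and 1426 intensity units in the controls and 1886 and 1484 in the Ets1-deleted arrays. The groups did not overlap, but Ets1-deleted 1 stood apart from the rest. The log2 difference was 0.27 ± 0.13 (limma, adjusted p = 0.149). Of the 4 bright probe sets, 2 rose in the fit of single probe sets. One went from 982 and 984 to 1288 and 1219 (0.35 ± 0.11, limma, adjusted p = 0.0370), the other from 345 and 341 to 540 and 462 (0.54 ± 0.12, limma, adjusted p = 0.00532). With the mean over its probe sets Klf6 passed at 0.32 (limma, adjusted p = 0.0145), and without Ets1-deleted 2 at 0.45 (limma, adjusted p = 0.0240), while its adjusted p ran from 0.0145 to 0.665 over all alternatives.

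Klf9, a target of glucocorticoid and thyroid hormone receptors, spread most within the groups. Its controls stood at 234 and 293 intensity units and the deleted pair at 282 and 410.2, so the groups overlapped. The log2 difference was 0.38 ± 0.17 (limma, adjusted p = 0.123). It passed without control 2 (0.54, limma adjusted p = 0.0100) and without Ets1-deleted 1 (0.65, limma adjusted p = 0.00486), and its adjusted p ran from 0.00486 to 0.667 over all alternatives. The other 2 bright probe sets differed by 0.21 and -0.03 without passing, and 4 more lay below the limit.

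**Figure D2:**
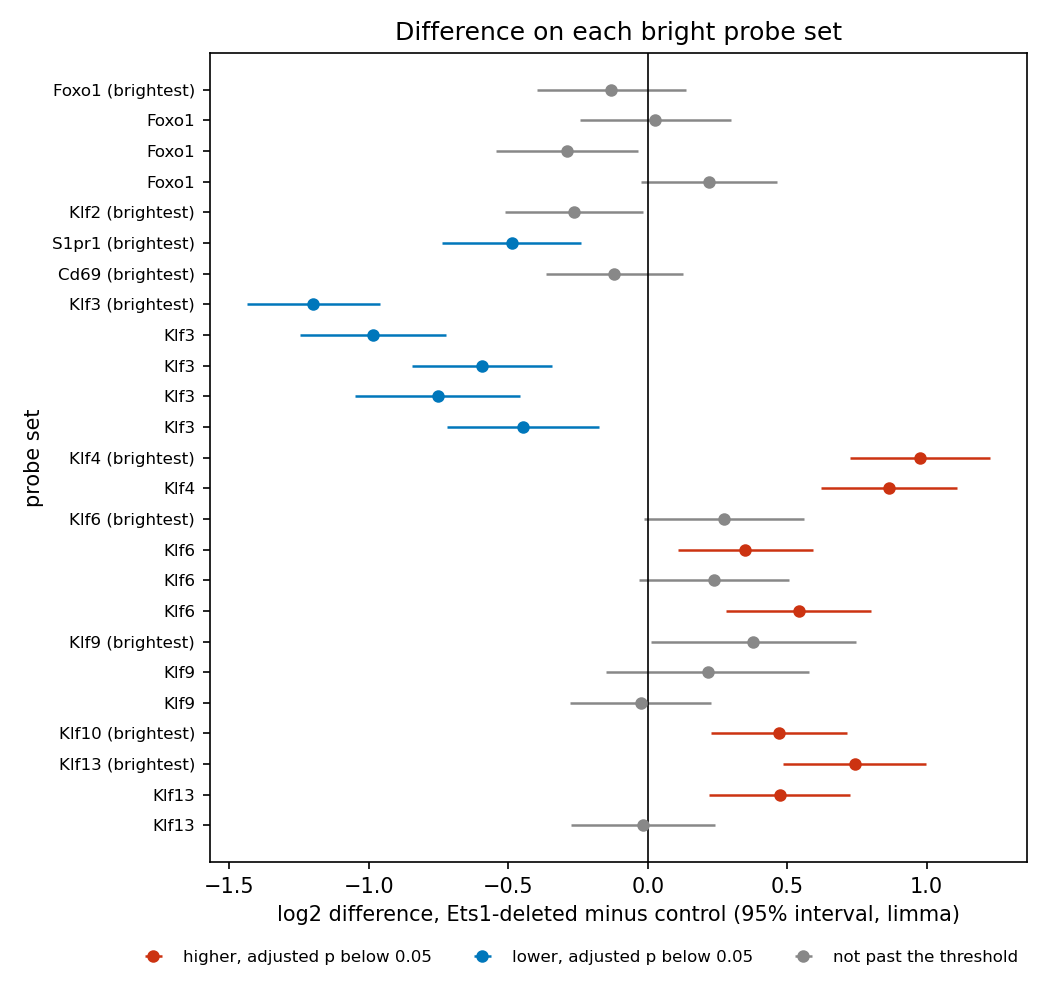
Log2 difference, Ets1-deleted minus control, with its 95% interval in limma, for the 25 bright probe sets of the 10 genes, in the fit with 1 row per probe set; red and blue mark probe sets called higher (7) and lower (6). The 5 Klf3 probe sets all lie left of 0, the 4 of Klf6 right of 0, and those of Foxo1 on both sides.

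Promoter sequence was read because the deleted factor binds ETS sites, FOXO1 forkhead sites, and KLF proteins GC boxes and CACCC elements. Of the 10 genes, 7 matched the RefSeq promoter table (GRCm38.p6); Klf10, S1pr1 and Cd69 did not. Each window holds the 250 bases before the gene's start, and each motif was searched on both strands. The ETS motif CGGAAG was in 0 of the 7 windows and in 13.6% of all 32851 promoters. It is a longer form of the ETS core GGAA, which was not searched by itself and occurs in the Klf3 and Klf4 windows. The forkhead motif TGTTTAC was in 1 of the 7, that of Klf9, 100 bases before the start, and in 3.17% of all promoters. The KLF motif CACACCC was in 0 of the 7 and in 6.93% of all. The GC box and the short CACCC element were added after these results were seen. The GC box GGGCGG was in 6 of the 7 windows and 32.7% of all promoters, and CACCC in 4 of the 7 and 52.0%. The 7 windows held 56.0% to 78.4% G and C, against a median of 52.4% over all promoters, so they differ from the rest in base composition too. The windows of the gene that fell most, of the 2 that rose most and of the gene with the forkhead match are shown 5′ to 3′ on the gene's strand, with matches to any of the 5 motifs in capitals. A capital run can hold overlapping matches, and a match is not a binding site.
Klf3 (chr5:64803271-64803520, + strand, 6 GC boxes and 5 CACCC): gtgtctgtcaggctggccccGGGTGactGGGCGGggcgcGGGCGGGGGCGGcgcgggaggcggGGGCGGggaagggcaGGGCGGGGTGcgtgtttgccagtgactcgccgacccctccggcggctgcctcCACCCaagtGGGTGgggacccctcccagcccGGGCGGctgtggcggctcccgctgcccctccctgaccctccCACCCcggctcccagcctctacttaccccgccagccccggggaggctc
Klf4 (chr4:55532476-55532725, - strand, 4 GC boxes): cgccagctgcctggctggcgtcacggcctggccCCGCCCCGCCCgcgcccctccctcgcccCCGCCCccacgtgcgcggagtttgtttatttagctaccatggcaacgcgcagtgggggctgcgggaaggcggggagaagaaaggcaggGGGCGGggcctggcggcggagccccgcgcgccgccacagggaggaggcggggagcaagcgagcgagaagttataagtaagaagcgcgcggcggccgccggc
Klf13 (chr7:63938916-63939165, - strand, 3 GC boxes and 1 CACCC): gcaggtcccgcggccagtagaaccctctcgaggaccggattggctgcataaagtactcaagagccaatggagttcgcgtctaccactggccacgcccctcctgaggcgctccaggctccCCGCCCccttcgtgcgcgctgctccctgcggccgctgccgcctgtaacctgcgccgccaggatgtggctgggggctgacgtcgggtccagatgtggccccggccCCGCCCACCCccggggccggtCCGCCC
Klf9 (chr19:23140976-23141225, + strand, 1 forkhead match and 1 CACCC): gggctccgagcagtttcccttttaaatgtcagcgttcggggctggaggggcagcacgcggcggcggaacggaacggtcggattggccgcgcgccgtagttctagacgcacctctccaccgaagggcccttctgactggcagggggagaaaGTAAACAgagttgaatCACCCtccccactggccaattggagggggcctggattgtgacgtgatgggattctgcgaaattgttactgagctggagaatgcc

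Across the whole KLF family, 13 genes could be tested, of which 4 rose, 3 fell and 6 did not pass. Over all tested genes 13.9% were higher and 12.8% lower, and the counts by subgroup and by list below are to be read beside these shares. Beside the 7 genes above, Klf12 fell by 1.13 on the log2 scale, from 201 and 195 intensity units to 98.4 and 82.8, and its second bright probe set differed by -0.75. Klf7 rose by 0.54 ± 0.12 and Klf5 fell by 0.48 ± 0.12, while Klf1, Klf11 and Klf16 did not pass. The Klf5 call was lost without control 2 (-0.41, limma adjusted p = 0.0746), without Ets1-deleted 1 (-0.40, limma adjusted p = 0.0506) and with the mean over its probe sets (-0.25, limma adjusted p = 0.0544), over alternatives from 0.00499 to 0.0746. KLF proteins are commonly sorted by cofactor, a grouping that was applied here after the values were seen. Both tested genes of the CtBP-binding subgroup, Klf3 and Klf12, fell. Of the 5 tested genes of the SIN3A-binding subgroup, 2 rose (Klf10 and Klf13) and 0 fell. Of the 6 in the activator subgroup, 2 rose (Klf4 and Klf7), 1 fell (Klf5) and 3 did not pass. Among the related SP factors 0 of 5 tested genes passed, with a median of -0.06. Cofactor genes did not all move one way: of 11 tested cofactors of KLF3 and KLF10 and their TGF-beta inputs, 2 rose and 2 fell (median 0.01). Kdm5b, a histone demethylase gene, rose by 0.94 ± 0.16 (0.42 with the mean over its probe sets) and Tgfb1 by 0.74 ± 0.11, though the second bright Tgfb1 probe set differed by 0.07. The corepressor gene Ctbp2 fell by 0.50 ± 0.12, a call lost without control 2 (-0.39, limma adjusted p = 0.0865, over alternatives from 0.00249 to 0.0865), and Ctbp1 differed by -0.04.

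**Figure D3:**
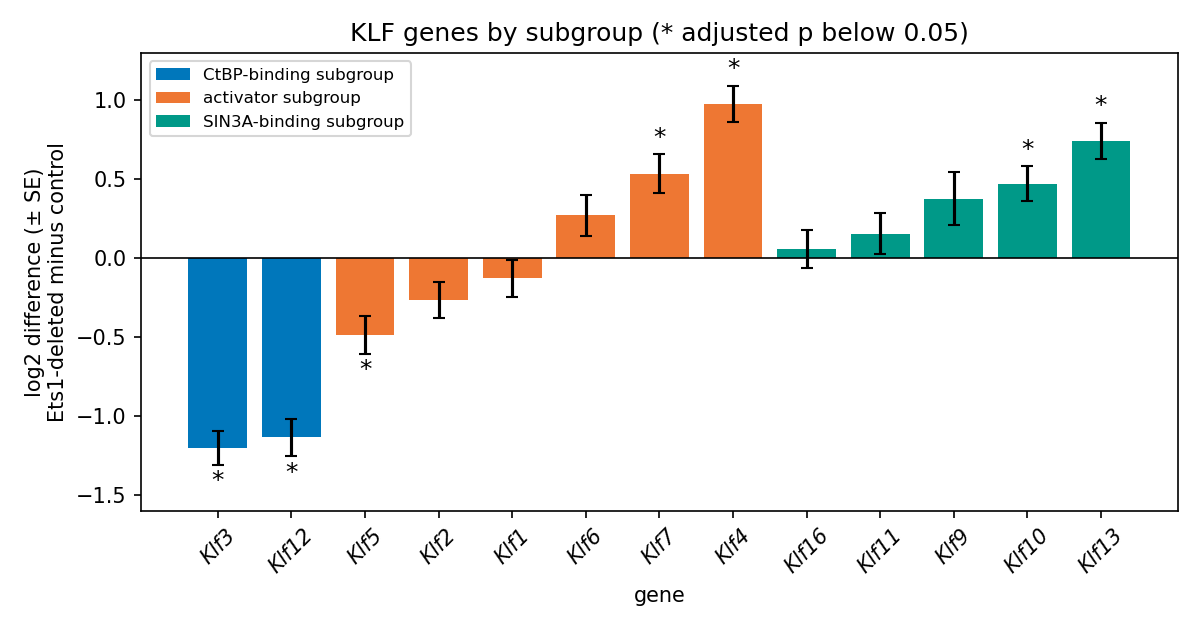
Log2 difference, Ets1-deleted minus control, of the 13 tested KLF genes, coloured by cofactor subgroup, with SE from limma as error bars and a star where the adjusted p was below 0.05. The bars of Klf3 and Klf12 reach -1.20 and -1.13, and those of the 5 SIN3A-binding genes lie between 0.06 and 0.74.

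Around the S1P receptor, 2 of 8 tested genes of S1P receptors and metabolism rose and 2 fell, with a median of 0.01. S1pr4, another lymphocyte S1P receptor gene, fell from 1899 and 1977 intensity units to 1334 and 1428, a log2 difference of -0.49 ± 0.11 like that of S1pr1. Sgpp1, an S1P phosphatase gene, fell by 0.64 ± 0.11, or by 0.34 with the mean over its probe sets. Plpp1, a lipid phosphatase gene, rose by 0.51 ± 0.14 and S1pr3 by 0.44 ± 0.13. Both of these calls were lost without control 1 (Plpp1 0.33, limma adjusted p = 0.163; S1pr3 0.28, limma adjusted p = 0.274) and without Ets1-deleted 2 (Plpp1 0.41, limma adjusted p = 0.0655; S1pr3 0.37, limma adjusted p = 0.0929). Over alternatives the adjusted p ran from 0.000598 to 0.163 for Plpp1 and from 0.00261 to 0.274 for S1pr3. The kinase gene Sphk1, which makes S1P, the exporter gene Spns2 and S1pr5 were too dim to test.

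Of 11 tested genes of receptor trafficking and coupling, 1 rose and 2 fell (median -0.02). Arrb1, which encodes beta-arrestin 1, rose by 1.00 ± 0.12, from 417 and 380.26 intensity units to 847 and 744. Arhgef1, a RhoA exchange factor gene coupled to S1P receptors, fell by 0.71 ± 0.11. Rac2 fell by 0.40 ± 0.13, a call lost without control 1 (-0.41), control 2 (-0.39) or Ets1-deleted 2 (-0.24). It was also lost with each array's 5th percentile subtracted (limma, adjusted p = 0.0960) and with no filter on dim genes (limma, adjusted p = 0.0579).

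Homing genes linked to KLF2 and FOXO1 also split, with 3 of 8 tested genes higher and 2 lower (median -0.10). Itga4, the alpha 4 integrin gene, rose by 0.72 ± 0.12, and Itgal, for the LFA-1 integrin, fell by 0.53 ± 0.11. Ccr7, a receptor gene for entry into lymph nodes, fell from 509 and 456 intensity units to 338 and 359, by 0.47 ± 0.11 on the log2 scale. Its call was lost without control 1 (-0.39, limma adjusted p = 0.0894, over alternatives from 0.00521 to 0.0894). Ccr9, a gut homing receptor gene, rose by 0.67 ± 0.15, but both its controls lay under the limit. Itgb7 differed by -0.32 ± 0.12 and did not pass (limma, adjusted p = 0.0774).

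**Figure D4:**
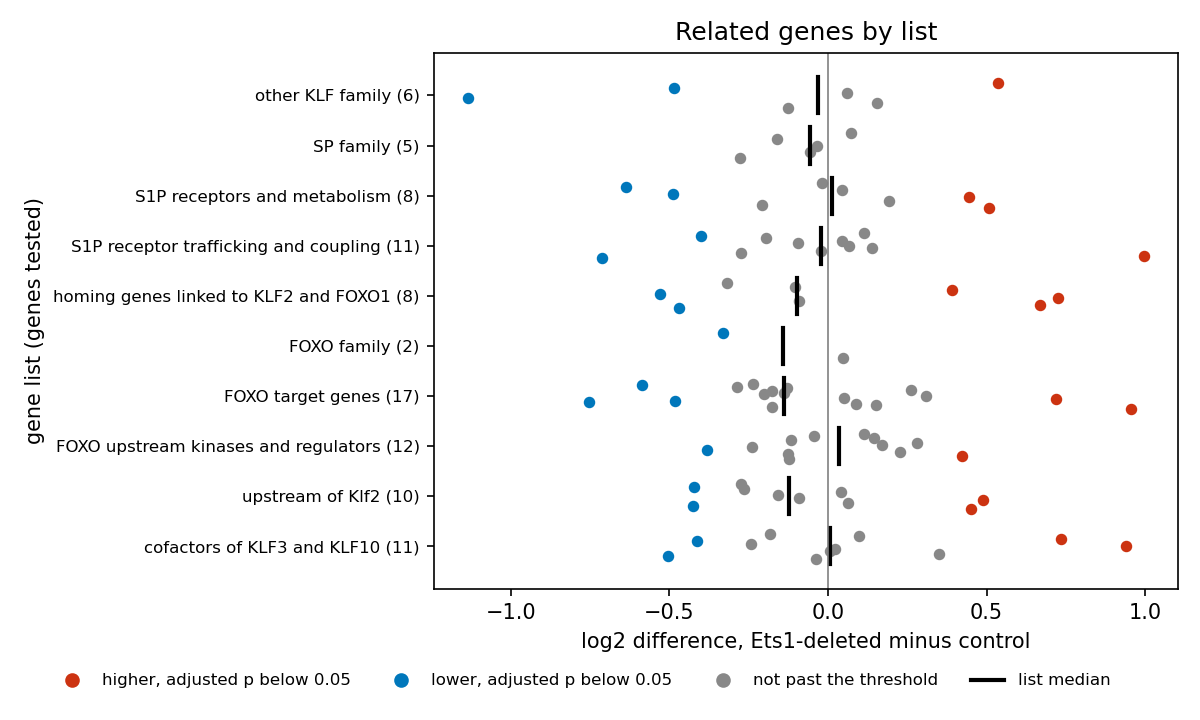
Log2 difference, Ets1-deleted minus control, of each tested gene in 10 lists of related genes, with the number tested in brackets after each list name; red points were called higher, blue lower, grey neither, and black bars are list medians. Calls in both directions appear in 8 of the lists, and every median lies between -0.14 and 0.03.

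Among genes that FOXO factors are known to drive, 2 of 17 rose, 3 fell and 12 did not pass (median -0.14). The IL-7 receptor gene Il7r differed by 0.05 ± 0.11, with a 95% interval from -0.19 to 0.29. Cited2 fell by 0.75 ± 0.13, although its second bright probe set differed by -0.14, and Trp53inp1 fell by 0.59 ± 0.11. Bcl2l11, which encodes the death protein BIM, rose by 0.96 ± 0.21, with all 5 of its bright probe sets between 0.71 and 1.40, and the stress gene Gadd45a rose by 0.72 ± 0.16. Without Ets1-deleted 1 the Bcl2l11 difference was 0.59, and without control 1 that of Gadd45a was 0.47, both still called. In the FOXO family Foxo3 differed by 0.05 ± 0.14 and went the other way with the mean over its probe sets (-0.14) and without Ets1-deleted 1 (-0.15). Foxo4 fell by 0.33 ± 0.11 (limma, adjusted p = 0.0470), a call lost in 9 of 14 alternatives, each of the 4 left-out arrays among them (-0.27 to -0.39), with adjusted p from 0.0340 to 0.410 over all.

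Upstream of FOXO1, 1 of 12 kinases and regulators rose and 1 fell (median 0.03). Akt2 rose by 0.42 ± 0.11 and Pik3cd fell by 0.38 ± 0.11, while Sgk1, a kinase gene that acts on FOXO proteins, differed by 0.17 ± 0.11. Akt2 also had a bright probe set at 0.02, and Pik3cd one at -0.02. The Akt2 call was lost without control 2 (0.39, limma adjusted p = 0.0853) or Ets1-deleted 1 (0.34, 0.0892), and that of Pik3cd without control 1 (-0.35, 0.136), control 2 (-0.41, 0.0668) or Ets1-deleted 2 (-0.36, 0.0656). Both calls were also lost with the mean over probe sets (Akt2 0.23, limma adjusted p = 0.102, and Pik3cd -0.19, 0.101) and with each array's 5th percentile subtracted (0.45, 0.0522, and -0.41, 0.0617). Their adjusted p ran over all alternatives from 0.0107 to 0.102 and from 0.0154 to 0.136. Upstream of Klf2, in the ERK5 and MEF2 pathway, 2 of 10 rose and 2 fell (median -0.12). Map2k5, the kinase gene above ERK5, rose by 0.49 ± 0.12, and Fbxw7, for the ubiquitin ligase that degrades KLF2, rose by 0.45 ± 0.12. Hdac5, a repressor of MEF2, fell by 0.43 ± 0.11. The calls of Map2k5 and Fbxw7 were lost without control 1 (0.36 and 0.39, limma adjusted p = 0.125 and 0.0882), that of Fbxw7 also without Ets1-deleted 1 (0.37, 0.0667), and that of Hdac5 without control 2 (-0.37, 0.118) or Ets1-deleted 1 (-0.39, 0.0542). Over all alternatives the adjusted p ran from 0.00234 to 0.125 for Map2k5, from 0.00123 to 0.0882 for Fbxw7 and from 0.00617 to 0.118 for Hdac5. In all, 14 of 90 tested genes of the 10 lists rose and 17 fell (34.4% called), against 26.7% of all tested genes. Without control 2, 9 of them fell.

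The genes closest in pattern to Klf3 and Klf4, the called genes with the largest fall and rise, were found by Euclidean distance over the 4 arrays between log2 values centred on each gene's mean, among 10495 named genes. For Klf3 they were Rab37 (distance 0.03, log2 difference -1.22), Slc22a23 (0.05, -1.16) and Stc2 (0.06, -1.25). For Klf4 they were Rnf217 (0.03, 0.98), Hemgn (0.04, 0.98) and Arrb1 (0.04, 1.00). With 4 arrays in 2 groups, such closeness mostly restates a like difference between the groups.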

How the data were processed

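RNA of sorted cells was amplified, labelled with biotin and hybridised to 1 array per sample, per the labels' protocols. The authors deposited RMA intensity per probe set, per the submitters' processing notes; the software and its version are not given there. Their range, 39.5 to 23291, led to the inference that they are linear, and log2 was taken. Intensities of dim genes level off at a floor, which understates their folds.

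Of 45101 probe sets, 34958 had 1 symbol in the platform annotation, 932 several and 9211 were not listed. The brightest probe set stood for each gene and was tested where its mean reached the 50th percentile of all probe sets (97.4 units). The fit was lmFit and eBayes (limma 3.58.1, R 4.3.3), as a two-sided test of Ets1-deleted minus control, Benjamini-Hochberg over 10873 genes, threshold 0.05, with 2 residual and 9.75 prior degrees of freedom, and was tested on simulated data. With 2 arrays a group, the smallest p of an exact permutation test is 0.333. The number of arrays limits the precision. In the simulated data 50 of 10873 genes were changed by 0.5 on the log2 scale, 100 by 1 and 50 by 2. Of those changed by 0.5, 38% were called in the right direction, against 99% at 1. On the arrays 26.7% of all tested genes were called. The share called with that many changed genes was not tested, so the 38% may not hold for the arrays. A gene that did not pass at a small difference is not shown to be unchanged.

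The genes, lists and tests were chosen with earlier results of these data known. Named were the 10 genes and Ets1, the 3 called genes of smallest p in each list, Il7r, Ccr7, Foxo3, Sgk1 and Itgb7, some of the other called list genes, and the 3 nearest patterns to 2 genes; genes that did not pass are named beside them only for contrast, after their values were seen.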

Additional observations from a re-analysis of the deposited data

How the results depend on the processing

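The alternatives were repeated quantile normalization, median centring, each array's 5th percentile subtracted with a floor of 16 units, no filter, a filter at the 70th percentile, the mean over probe sets, 1 row per probe set, the replicate number as a block, a variance trend, robust variances, an adjusted p of 0.1 and leaving out each array. For the related lists and the KLF family, the recount under them was decided after seeing the data. Klf3, Klf4 and Klf13 kept their direction and their call in limma under each alternative in which they could be tested; Klf4 could not be tested at the 70th percentile. Foxo1 and Cd69 kept their direction and passed in none. Klf2 passed with the mean over probe sets (adjusted p = 0.0450 in limma), where its own value was the same -0.26. With 1 row per probe set 4797 of 19845 passed instead of 2900 of 10873, since more rows were tested. At the 70th percentile 1 KLF gene was called lower instead of 3, since Klf5 and Klf12 were no longer tested. With any 1 array left out, 2238 to 2736 genes passed, 3 to 4 of the 10 genes were higher and 1 to 2 lower, 4 to 5 KLF genes were higher and 2 to 3 lower, and 12 to 14 listed genes were higher and 9 to 15 lower. The lone array of a group is then assumed to vary like the other group. Without either control, the adjusted p of the named genes followed the size of the difference alone, as with a variance common to all genes. A call lost in such a fit can therefore reflect the changed variance as well as the array left out. Foxo3 reversed when probe sets were averaged (-0.14) and, with arrays left out, ran from -0.15 to 0.25. With the array floor subtracted Klf12 gave -2.08, Ccr9 1.57, Plpp1 1.19, Gadd45a 1.18 and Ctbp2 -0.85, and with the mean over probe sets Cited2 gave -0.44, Tgfb1 0.40, Map2k5 0.31, Plpp1 0.30 and Foxo4 -0.10. The shared replicate numbers are not known to pair arrays (deviations of same-numbered arrays correlated at 0.17 over genes, with only 2 pairs). With the replicate block 3252 genes passed, 4 of the 10 were higher and 2 lower, and Klf9 passed (0.38, adjusted p = 0.0236 in limma). Signal near the floor limits what can be said of Klf4 and of genes that were too dim to test.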
